A study of Homo sapiens with 4 samples.

Results

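The exons described here are deep alternative exons whose length is divisible by 3, taken from a table of skipped exons in 293T cells. They were chosen by 4 criteria: a mean of at least 200 junction reads over the 4 libraries, a mean inclusion level from 0.2 to 0.8, a length of 51 to 399 nt, and a length divisible by 3. The rule kept 370 exons in 320 genes, out of 49507 distinct exons and 65601 skipped exon events in the table. Junction reads are reads that span a splice junction, and an event is an exon with 1 pair of neighbouring exons. The inclusion level is the estimated share of the transcripts covered by an event that contain the exon, after correction for the lengths of the 2 forms. It runs from 0 (always skipped) to 1 (always included) and is not a share of all transcripts of the gene. Where an exon appeared in several events, the event with most reads among those that met these criteria was used. Depth and inclusion level chose the exons, so both are given below as a description, and only differences between the sets of libraries were tested.

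293T is an established line derived from human embryonic kidney cells and is easily transfected. By the labels, 2 libraries are from 293T cells given an antisense oligonucleotide (ASO) against SNORD89, a small nucleolar RNA, at 70 nM, and 2 are from 293T cells whose treatment is given as none. The ASO is a gapmer, a modified strand whose DNA core directs RNase H to the RNA that it pairs with. The protocol in the labels has a lipid transfection, a change of medium at 24 h and RNA taken at 48 h; it is attached to all 4 libraries, names no control ASO, and does not say whether the untreated cells received the lipid. Poly(A) RNA was sequenced as read pairs. The question was whether exon inclusion differs when the small nucleolar RNA is knocked down; its own level is not a quantity in the table.

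Which of the 2 sets of the table holds the ASO libraries is stated in neither its headers nor the labels. The name of the table puts SNORD89 ahead of the untreated cells, which does not say that its first set is the ASO one. Differences are therefore given only as the first set minus the second set, and libraries are named by their place within a set. The libraries are called biological replicates in the labels, without mention of separate cultures, so a p-value below measures only the spread between these 2 libraries of each set.

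An exon whose length is a multiple of 3 can be included or left out without moving the reading frame of the codons behind it, so both mRNAs can encode a protein, one with an added stretch of amino acids. An exon of another length shifts the frame when it is skipped or included, which often brings a premature stop codon and decay of that mRNA by the nonsense-mediated pathway. Frame-keeping cassette exons are a textbook source of protein isoforms that differ in a loop, a linker or a binding surface. Examples are KDM1A, PTBP1 and the hnRNP proteins.

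The coding exons on which the results turn are shown first, because the whole exon is the unit that is included or skipped. Of the 370 exons, 328 (88.6%) were matched to a GENCODE release 29 exon by gene identifier and by the spacing of the 3 exons of the event; 42 were not. The sequences are the GENCODE 29 transcript sequences of the matched exons, 5′ to 3′ on the coding strand. The coordinates are those of the authors' deposited table (hg19, 1-based starts). Capitals mark bases at either end that share a codon with a neighbouring exon, and an exon in lower case throughout begins and ends at codon boundaries. The first 8 are coding exons called between the sets, and the remaining 5 are the coding exons among the 6 with most reads.
HCFC1R1 57 nt (hg19 chr16:3073475-3073531, minus strand): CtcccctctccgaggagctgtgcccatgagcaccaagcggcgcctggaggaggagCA
GRIPAP1 78 nt (hg19 chrX:48838207-48838284, minus strand): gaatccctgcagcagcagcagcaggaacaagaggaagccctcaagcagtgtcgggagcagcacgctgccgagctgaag
PLEKHM2 60 nt (hg19 chr1:16047824-16047883, plus strand): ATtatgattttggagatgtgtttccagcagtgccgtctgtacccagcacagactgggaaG
ZC3H14 75 nt (hg19 chr14:89063078-89063152, plus strand): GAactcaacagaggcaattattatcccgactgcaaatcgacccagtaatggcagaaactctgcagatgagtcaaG
PNISR 54 nt (hg19 chr6:99851705-99851758, minus strand): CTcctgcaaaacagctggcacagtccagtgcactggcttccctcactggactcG
KDM1A 60 nt (hg19 chr1:23370920-23370979, plus strand): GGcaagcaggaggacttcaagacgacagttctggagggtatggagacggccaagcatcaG
BRSK2 66 nt (hg19 chr11:1469028-1469093, plus strand): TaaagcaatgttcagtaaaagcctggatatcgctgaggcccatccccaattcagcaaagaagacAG
FIP1L1 69 nt (hg19 chr4:54257597-54257665, plus strand): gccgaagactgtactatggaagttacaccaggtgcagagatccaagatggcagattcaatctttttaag
PCBP2 93 nt (hg19 chr12:53858544-53858636, plus strand): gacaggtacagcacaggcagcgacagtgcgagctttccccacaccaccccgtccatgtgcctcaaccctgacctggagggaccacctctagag
HNRNPD 147 nt (hg19 chr4:83277690-83277836, minus strand): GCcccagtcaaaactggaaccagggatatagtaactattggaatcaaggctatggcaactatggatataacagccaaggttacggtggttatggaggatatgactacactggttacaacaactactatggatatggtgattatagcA
HNRNPD 57 nt (hg19 chr4:83292681-83292737, minus strand): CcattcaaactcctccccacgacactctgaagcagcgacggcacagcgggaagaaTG
EIF3K 78 nt (hg19 chr19:39123241-39123318, plus strand): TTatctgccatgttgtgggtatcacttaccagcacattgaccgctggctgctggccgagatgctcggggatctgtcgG
HNRNPM 54 nt (hg19 chr19:8548042-8548095, plus strand): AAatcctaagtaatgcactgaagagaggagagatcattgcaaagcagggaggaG

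The 3 reading-frame positions are all represented among these sequences. GRIPAP1, FIP1L1 and PCBP2 are whole codons from end to end (phase 0). KDM1A, PLEKHM2, ZC3H14, PNISR, EIF3K, HNRNPM and the longer HNRNPD exon take 2 bases from a codon opened upstream and lend 1 base to the next (phase 1). HCFC1R1, BRSK2 and the shorter HNRNPD exon take 1 base and lend 2 (phase 2). In codons, the 13 exons span from 18 in HNRNPM and PNISR to 49 in the longer exon of HNRNPD.

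Most of the frame-keeping exons were coding. Of the 328 matched exons, 259 (79.0%) lay wholly in coding sequence, 35 (10.7%) partly and 34 (10.4%) outside it. The 351 deep exons chosen by the same depth, inclusion and length limits but with a length not divisible by 3 had 310 matches, of which 146 (47.1%) were coding, 54 (17.4%) partly coding and 110 (35.5%) non-coding. GENCODE 29 listed the skipped form of 232 of the 259 coding frame-keeping exons (89.6%) as a protein-coding transcript and that of 34 (13.1%) as a target of nonsense-mediated decay. For the coding frame-shifting exons the counts were 91 of 146 (62.3%) and 49 (33.6%). None of the 259 coding exons held a stop codon in its annotated frame, which follows from their lying wholly in annotated coding sequence. These shares describe the annotation and were not tested; the frame criterion itself bears on them.

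**Figure D1:**
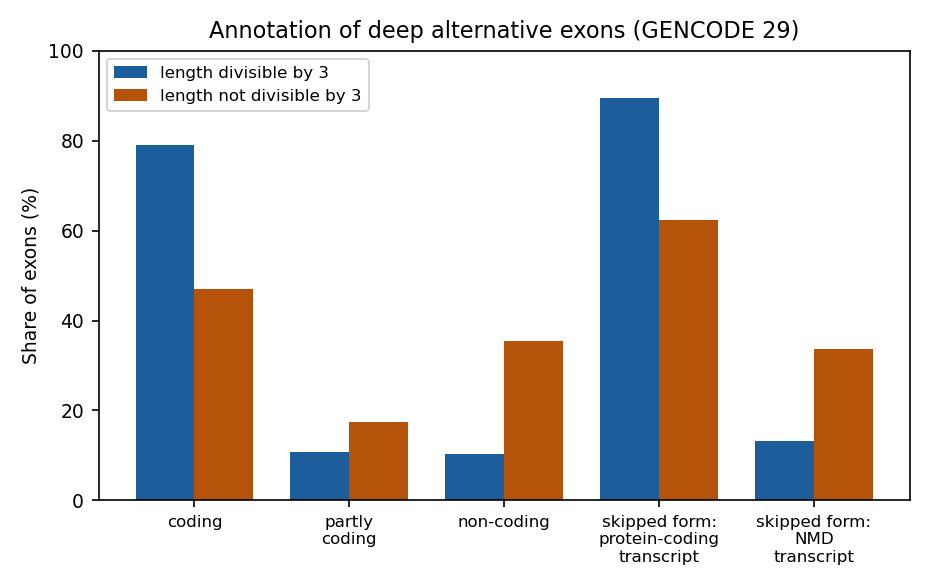
Share of deep alternative exons (%) in each GENCODE 29 class, for exons with a length divisible by 3 (blue) and for the others (orange). The first 3 pairs of bars are shares of the 328 and 310 matched exons, and the last 2 pairs are shares of the 259 and 146 coding exons; 79.0% of frame-keeping against 47.1% of frame-shifting exons were coding.

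Codon phase was uneven. Among the 259 coding frame-keeping exons, 123 (47.5%) began at a codon boundary, 93 (35.9%) were of phase 1 and 43 (16.6%) of phase 2. The corresponding shares of the coding frame-shifting exons were 34.2%, 41.8% and 24.0%. The frame-keeping exons had a median length of 111 nt (quartiles 81 and 150 nt), against 128 nt for the frame-shifting ones. Their flanking introns added up to a median of 3599 nt, against 3991 nt for the frame-shifting exons and 5161 nt for all tested events. Median GC content was 55.8% and 54.0%. The second exon of the matched transcript accounted for 78 of the frame-keeping exons, among them 23 of the 34 non-coding ones, and for 143 of the frame-shifting exons.

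Inclusion levels were spread over the whole permitted range with a concentration at its upper end. The median was 0.638, 242 exons (65.4%) had a level above 0.5, and 137 (37.0%) lay between 0.7 and 0.8. The lowest step, from 0.2 to 0.3, held 46 exons. Coding exons had a median inclusion level of 0.664, non-coding exons one of 0.563 and partly coding exons one of 0.514. At the lower edge, SDCCAG3 (0.2001), SEC31A (0.207) and ACIN1 (0.212) were just inside and SAMD4B (0.199), SRSF11 (0.198) and SPTAN1 (0.192) just outside. At the upper edge TCOF1 (0.79988), BRF1 (0.79975) and RP11-295G20.2 (0.79929) were just inside, and NETO2 (0.8003), FLNA (0.8006) and MPI (0.8017) just outside. By reads, TTL (200.75), TNIP1 (201) and METTL23 (201.5) were the last inside, and FGFR1OP (199.75), RIF1 (199) and EPB41 (198.75) the first outside.

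The depth behind these levels was high for splice junctions. Junction reads summed over all events came to 38613055 and 39012939 for the libraries of the first set and 42868431 and 43929373 for those of the second, of which the 370 exons took from 0.539% to 0.579%. The median reads per exon were 374.5 and 351 for the libraries of the first set, and 331 and 366.5 for those of the second. The median 95% Wilson interval of one inclusion level was 0.101 wide, and it narrowed from 0.126 for exons of 200 to 300 reads to 0.0486 for exons of 1000 or more. Exons of ZC3H11A and HUWE1 had a library under 100 reads, and the lowest count was 23. Intervals cover counting error only.

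The 4 libraries did not differ from one another equally. Library 2 of the second set differed by more than 0.1 from the mean of the others in 78 exons (21.1%), and each of the other libraries did so in 23 to 29. The 3 pairs that contain it had between 4.54 and 5.52 times the chi-square of binomial sampling, against 2.48 to 2.70 times in the other 3 pairs. The 2 libraries of the first set differed by a median of 0.0343, and library 1 of the first set differed from library 1 of the second by 0.0363. The calls below are therefore also given without it.

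**Figure D2:**
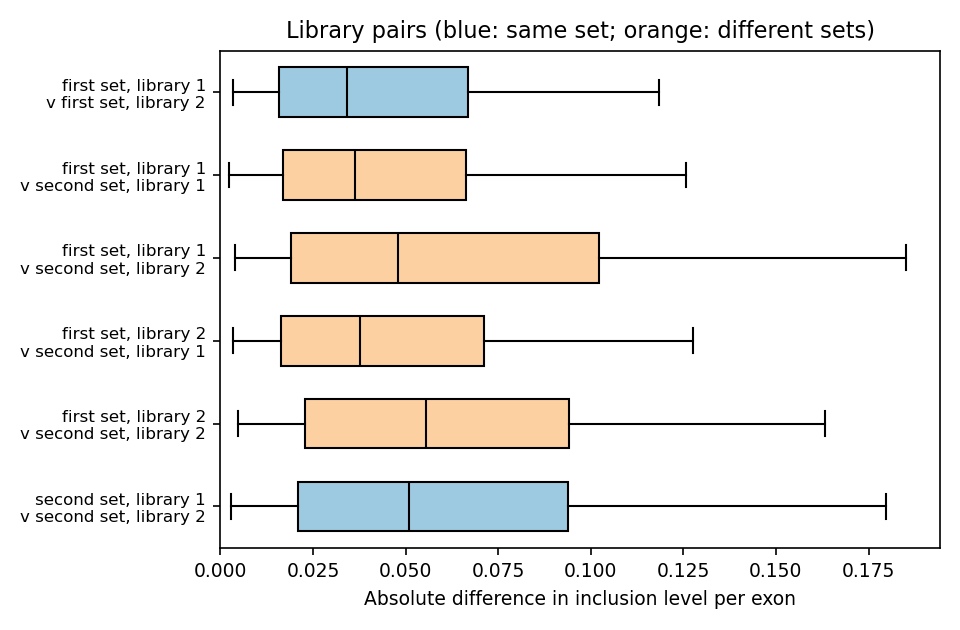
Absolute difference in inclusion level per exon (x axis) for each of the 6 pairs of libraries, over the 370 frame-keeping exons; boxes are quartiles, the line the median and whiskers the 5th and 95th percentiles. The 3 pairs with library 2 of the second set have the highest medians, from 0.0481 to 0.0555, also where both libraries belong to 1 set.

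Inclusion of these exons moved little between the sets. The median absolute difference was 0.0323, about the size of the difference between the 2 libraries of the first set. Of the 370 exons, 245 (66.2%) differed by less than 0.05, 28 by at least 0.1 and 0 by at least 0.2. The median signed difference was 0.00564. Among the 4331 tested events of any length and at least 20 reads with a mean inclusion level of 0.2 to 0.8, the median absolute difference was 0.0768, with a median of 68.5 reads per event; the minimum for the frame-keeping exons was 200 reads. For the 351 frame-shifting exons it was 0.0408.

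**Figure D3:**
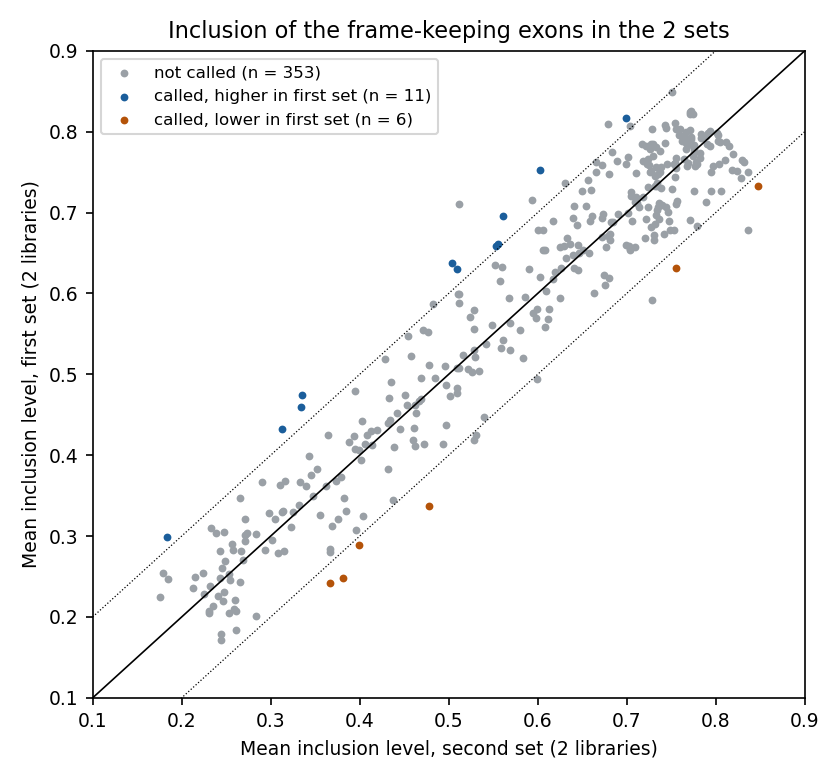
Mean inclusion level of each of the 370 exons in the second set (x axis) and in the first set (y axis), 2 libraries each; the black line marks equality and grey lines a difference of 0.1. Blue points are the 11 exons called higher in the first set and orange points the 6 called lower; 245 exons lie within 0.05 of equality.

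In the authors' deposited table, 17 of the 370 exons (4.59%) had a false discovery rate (FDR) under 0.05 and an absolute difference of at least 0.1, the rule for a call used here; over all 54503 tested events the share was 2.71%. Most tested events are close to full inclusion, and of the 4331 tested events with a mean inclusion level of 0.2 to 0.8 the share was 7.85%. The frame-shifting exons also had 17 calls (4.84%). In the authors' deposited table, 11 of the calls were higher in the first set (1.34% of all tested events were called in that direction) and 6 lower (1.37%). An FDR under 0.05 regardless of size was given to 22 exons in the authors' deposited table, against 5.72% of all tested events.

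A test whose error is the spread between libraries called none of them. In a quasi-binomial model with the dispersion moderated by limma, 0 of the 370 exons had a Benjamini-Hochberg adjusted p under 0.05, as did 0.0% of all tested events, and the smallest adjusted p was 0.624. At an unadjusted p under 0.05 it had 51 of the exons (13.8%), 30 higher and 21 lower in the first set, against 7.95% of all tested events. An unplanned fit of the same model took only events with a mean inclusion level of 0.05 to 0.95. At the same unadjusted threshold that fit had 26 of the 370 exons and 910 of 13401 events. limma, run on log2 ratios of inclusion reads to skipping reads, also gave 0 at an adjusted p under 0.05. At an unadjusted p under 0.05 that fit had 0 of the 370 exons and 2654 of the 54503 tested events. limma with precision weights gave 2 (0.235% of all tested events passed it). At an unadjusted p under 0.05 the weighted fit had 45 of the 370 exons and 5934 of the 54503 tested events. The calls named below are therefore calls of the authors' test.

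Sets whose 2 levels both lay above or both below those of the other set were found for 129 exons (34.9%), against 22.8% of all tested events and 33.9% of those with a mean inclusion level of 0.2 to 0.8, so the share was near that of events at like inclusion. Of the 129, 70 were higher and 59 lower in the first set; over all tested events the counts were 5065 and 7352, and at inclusion of 0.2 to 0.8 they were 804 and 665. A gap of at least 0.05 between the sets was found in 29 exons (7.84%), against 3.68% of all tested events and 16.9% of the shallower events at inclusion of 0.2 to 0.8. Among the frame-shifting exons, sets that did not overlap were found for 136 (38.7%), with 94 higher and 42 lower. A gap of at least 0.05 was found for 31 of them (8.83%). These counts were set side by side without a test.

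All 17 called exons had sets that did not overlap. Their differences in the authors' deposited table were from 0.105 to 0.15 in size. Their median depth was 282.5 reads, from 210.75 to 793.75. In 4 of them, RPUSD1, HCFC1R1, NSUN5P2 and GRIPAP1, the 95% intervals of the first set also lay clear of those of the second. By annotation, 9 were coding (6 higher and 3 lower in the first set), and for 7 of these 9 GENCODE 29 lists the skipped form as a protein-coding transcript.

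**Figure D4:**
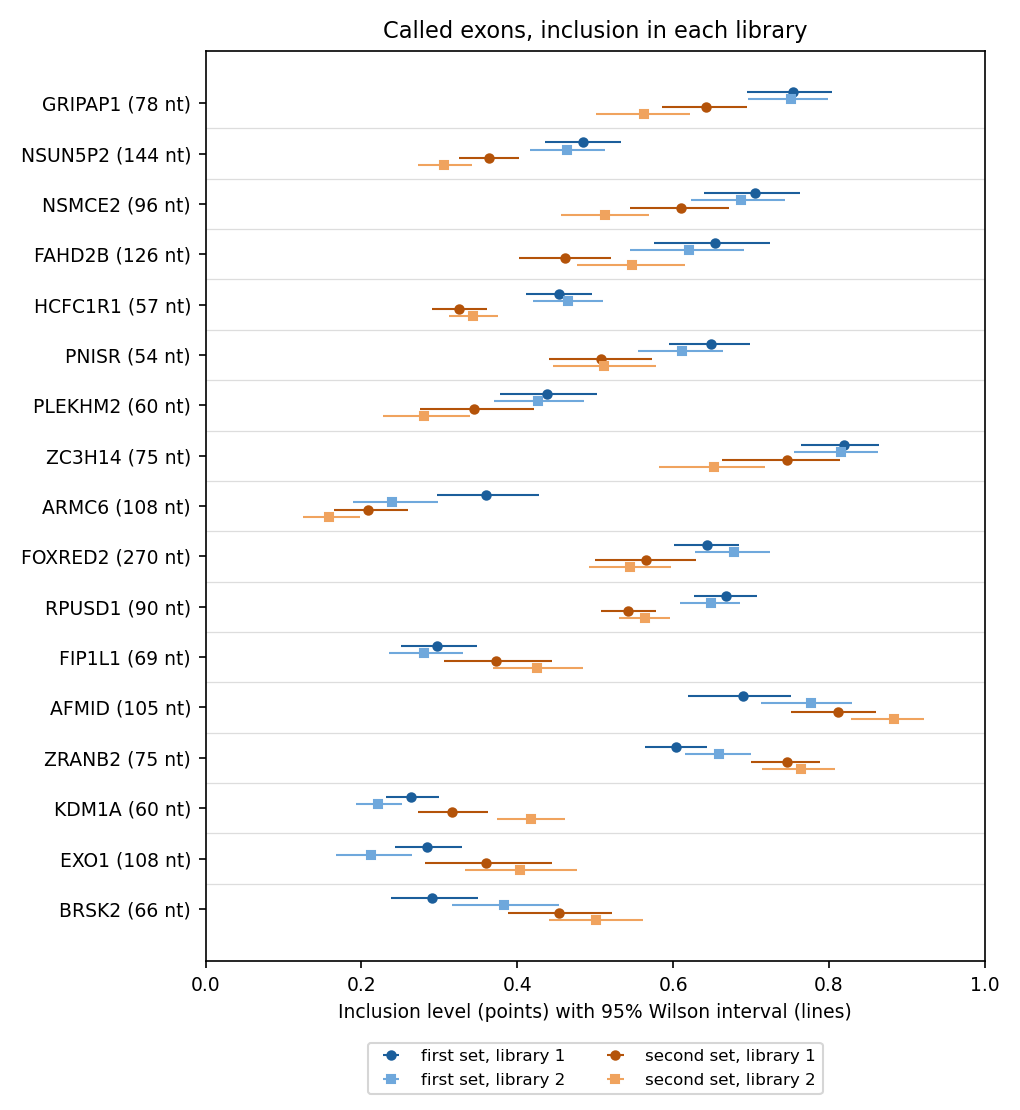
Inclusion level (x axis, 0 to 1) of the 17 called exons in each library, blue for the first set and orange for the second; points are levels and lines 95% Wilson intervals. The upper 11 exons have both blue points to the right of both orange ones and the lower 6 to the left; library 2 of the second set is the outermost point of the second set in most rows.

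Among coding exons higher in the first set, HCFC1R1 and GRIPAP1 had the lowest FDR. HCFC1R1 (ENSG00000103145.6) encodes a small regulator of the transcriptional cofactor HCFC1, and its 57-nt exon, at chr16:3073475-3073531 on the minus strand, adds 19 codons. Its inclusion level was 0.454 and 0.465 in the first set against 0.325 and 0.343 in the second, from 482 to 820 reads. Both libraries of the first set were thus above both of the second by more than their intervals. The means were 0.459 ± 0.00798 and 0.334 ± 0.0131 (SD, n = 2 each). For HCFC1R1 the authors' deposited table lists a difference of 0.126 at FDR 0.0034. The unadjusted quasi-binomial p was 0.000373, and the adjusted p 0.624. A further event in the table pairs this exon with other neighbouring exons, and the mean difference over both events was 0.0149. The difference in that further event thus had the opposite sign.

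GRIPAP1 (ENSG00000068400.9) encodes a coiled-coil protein of recycling endosomes. The 78-nt exon printed above, at chrX:48838207-48838284 on the minus strand, is exon 18 of 26 and holds a run of cag codons. Its levels were 0.754 and 0.751 in the first set against 0.642 and 0.562 in the second. The first set was tight and high, and the second lower and more spread. The authors' deposited table gives the GRIPAP1 exon a difference of 0.15, the largest of the 17 calls, with 0.0044 as its FDR. The quasi-binomial p was 0.00269 before adjustment, and the difference was 0.110 without library 2 of the second set.

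PLEKHM2, an adaptor that couples lysosomes to kinesin, had a 60-nt coding exon (chr1:16047824-16047883, plus strand) with levels of 0.439 and 0.427 against 0.345 and 0.280. ZC3H14, a zinc finger protein that binds poly(A) tails, had a 75-nt coding exon (chr14:89063078-89063152, plus strand) with levels of 0.819 and 0.816 against 0.746 and 0.653. In both genes the libraries of the first set lay within 0.02 of each other, and library 2 of the second set was the lowest of the 4. The PLEKHM2 difference in the authors' deposited table was 0.120, at an FDR of 0.0310, and that of ZC3H14 was 0.118, at 0.0329. Without library 2 of the second set the differences were 0.088 and 0.0715, under the size of a call. The mean difference over all events with the ZC3H14 exon was 0.0649.

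PNISR, a nuclear protein with an arginine- and serine-rich stretch, and FOXRED2, a flavoprotein of the endoplasmic reticulum, complete the coding exons called higher. The 54-nt exon of PNISR (chr6:99851705-99851758, minus strand) had levels of 0.649 and 0.611 against 0.507 and 0.512. The authors' deposited table lists it at a difference of 0.120 and FDR 0.0379, and without library 2 of the second set the difference was 0.123. For the 270-nt exon of FOXRED2 (chr22:36900145-36900414, minus strand) the levels were 0.644 and 0.678 against 0.566 and 0.545. Its FDR of 0.0497 in the authors' deposited table was the closest of the 17 to the threshold. Neither exon has its skipped form among the protein-coding transcripts of GENCODE 29.

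The other 5 exons called higher lay outside annotated coding sequence or were not matched. The 90-nt exon of RPUSD1, a gene of the pseudouridine synthase family, was non-coding (chr16:837556-837645, minus strand) and had the most reads of the 17. Its levels were 0.668 and 0.648 against 0.543 and 0.563, and the authors' deposited table lists a difference of 0.105 at FDR 0.0159. A longer, partly coding form of the same RPUSD1 exon, of 189 nt, shares its downstream end and is a separate exon of the 370: 0.767 and 0.752 against 0.670 and 0.675. The shared splice junctions of the 2 forms make these 2 results dependent. For the 189-nt form, the authors' deposited table lists a difference of 0.087 at FDR 0.0155.

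NSUN5P2 is a transcribed pseudogene of the rRNA methyltransferase NSUN5. Its 144-nt exon (chr7:72422691-72422834, minus strand) had levels of 0.484 and 0.464 against 0.363 and 0.306, and in the authors' deposited table the lowest FDR of the 17, 0.0015, with a difference of 0.139. Reads of such copies can be assigned to either, so this level is uncertain; the 144-nt exon of the sister copy NSUN5P1 was also among the 370, with 0.536 and 0.445 against 0.572 and 0.299. The mean difference over the 3 events that contain the NSUN5P2 exon was 0.0640.

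NSMCE2, which encodes a SUMO ligase of the SMC5/6 complex, had a non-coding 96-nt exon (chr8:126114293-126114388, plus strand) at 0.705 and 0.687 against 0.610 and 0.512. ARMC6, an armadillo repeat gene, had a 108-nt exon without a match (chr19:19144940-19145047, plus strand) at 0.360 and 0.239 against 0.208 and 0.158. FAHD2B had a non-coding 126-nt exon (chr2:97757600-97757725, minus strand) at 0.654 and 0.621 against 0.461 and 0.547, a value that its near-identical copy FAHD2A makes uncertain. The FDR of these 3 exons was 0.0312, 0.0364 and 0.0484 in the authors' deposited table. Library 1 of the first set stood above the other 3 libraries in ARMC6, and that exon lost its size of a call without either that library or library 2 of the second set. Over all events with the exon, the mean difference was 0.0990 for NSMCE2 and 0.0701 for ARMC6.

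In the other direction, 3 coding exons were lower in the first set: those of KDM1A, BRSK2 and FIP1L1. KDM1A (ENSG00000004487.11) encodes the histone H3 demethylase LSD1, and its 60-nt exon at chr1:23370920-23370979 on the plus strand adds 20 codons. Its levels were 0.264 and 0.221 in the first set against 0.316 and 0.417 in the second, with means of 0.242 ± 0.0302 and 0.366 ± 0.0717 (SD, n = 2 each). The skipped form was the major one in every library, and library 2 of the second set had the highest inclusion. The authors' deposited table lists a difference of -0.124 at FDR 0.0095. The unadjusted quasi-binomial p was 0.00121, and limma with precision weights gave an adjusted p of 0.0499. Without library 2 of the second set the difference was -0.0733.

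BRSK2 encodes a neuronal kinase of the AMPK-related family. Its 66-nt exon (chr11:1469028-1469093, plus strand) had levels of 0.291 and 0.382 in the first set against 0.454 and 0.501 in the second. The libraries of the first set differed from each other by more than those of the second did. In the authors' deposited table the BRSK2 difference was -0.141, with an FDR of 0.0221, and it was -0.117 without library 2 of the second set.

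FIP1L1, a subunit of the complex that cleaves and polyadenylates mRNA, contributed 2 exons to the 370. The 69-nt coding exon printed above (chr4:54257597-54257665, plus strand) had levels of 0.297 and 0.280 against 0.373 and 0.426, and the authors' deposited table lists a difference of -0.111 at FDR 0.0333. Its 108-nt exon, also coding, had levels of 0.372 and 0.521 against 0.507 and 0.572. There the sets overlapped, and the exon was not called. The 69-nt difference was -0.084 without library 2 of the second set.

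The remaining 3 exons called lower were partly coding or non-coding. ZRANB2 encodes a zinc finger splicing factor; its 75-nt exon (chr1:71531361-71531435, minus strand, partly coding) had levels of 0.604 and 0.659 against 0.746 and 0.764. In the authors' deposited table it had the lowest FDR of the calls in this direction, 0.0035, and a difference of -0.124. EXO1, an exonuclease of mismatch repair, had a non-coding 108-nt exon (chr1:242012411-242012518, plus strand) at 0.284 and 0.212 against 0.359 and 0.403. AFMID, the kynurenine formamidase, had a partly coding 105-nt exon (chr17:76202027-76202131, plus strand) at 0.689 and 0.777 against 0.812 and 0.883. Their FDR was 0.0201 and 0.0303 in the authors' deposited table. The mean over both events that contain the EXO1 exon was -0.0722. For AFMID the mean difference over all events with the exon was -0.0871.

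With library 2 of the second set left out, 9 of the 17 calls kept a difference of at least 0.1 (6 higher and 3 lower). The 8 that did not were KDM1A, FOXRED2, NSMCE2, AFMID, FIP1L1, ZC3H14, PLEKHM2 and ARMC6. Without library 1 of the first set 12 kept that size, and without either of the other libraries 15. In none of these cases did any of the 17 change direction.

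Another 5 exons had an FDR under 0.05 with a difference under 0.1 in the authors' deposited table: the long form of RPUSD1, and exons of GEMIN7, MTA1, IFT20 and ERCC1. MTA1, a subunit of the NuRD chromatin remodelling complex, had a 51-nt coding exon at 0.347 and 0.347 against 0.242 and 0.288. The mean over both events with the MTA1 exon was 0.0195, against 0.0819 in the event with most reads, so the other event had the opposite sign. GEMIN7, of the complex that assembles spliceosomal particles, had a non-coding 123-nt exon at 0.582 and 0.513 against 0.447 and 0.461. IFT20, a cilium transport protein, had a 237-nt partly coding exon at 0.308 and 0.311 against 0.261 and 0.205. ERCC1, a subunit of a nuclease for excision repair, was the one lower in the first set, with a 72-nt coding exon at 0.718 and 0.768 against 0.784 and 0.873.

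The deepest of the exons had the smallest differences between the sets. Among the 48 exons with at least 1000 reads, the median absolute difference between the sets was 0.0109, the largest was 0.0871, and none was called. At 500 to 1000 reads 4 of 70 exons were called, at 300 to 500 reads 3 of 116, and at 200 to 300 reads 10 of 136, against 4.59% of the 370 exons and 2.71% of all tested events. The median absolute difference of these classes was 0.0300, 0.0334 and 0.0458. The differences were thus smaller where the reads were more numerous, and so was counting error. The median interval width was 0.126 at 200 to 300 reads and 0.0486 at 1000 or more. The share of exons whose sets did not overlap was 33.8%, 31.9%, 40.0% and 37.5% from the lowest class to the highest. Over the 370 exons it was 34.9%, and over all tested events 22.8%.

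MAZ, a zinc finger transcription factor, had the most reads, a mean of 7894. Its 225-nt exon, partly coding, had levels of 0.370 and 0.376 in the first set against 0.381 and 0.377 in the second, within 0.02 of each other in all 4 libraries. The next were RNA-binding proteins. The 93-nt exon of PCBP2, a poly(C)-binding protein, had levels of 0.626 and 0.615 against 0.612 and 0.594. HNRNPD, which binds AU-rich elements in mRNA, had both of its alternative exons among the 6 deepest. Its 147-nt exon, exon 7 of 9, had levels of 0.434 and 0.428 against 0.413 and 0.426.

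The 57-nt exon of HNRNPD had levels of 0.814 and 0.778 against 0.772 and 0.832. The 2 exons of this gene thus sat at different levels in the same libraries. One was in a minority of the transcripts covered by its event, and the other in most of those covered by its own. HNRNPM, a splicing regulator, had a 54-nt exon at 0.776 and 0.763 against 0.778 and 0.770. EIF3K, a subunit of the translation initiation factor eIF3, had a 78-nt exon at 0.781 and 0.792 against 0.801 and 0.809. The authors' deposited table has each of these 6 exons at FDR 1.

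**Figure D5:**
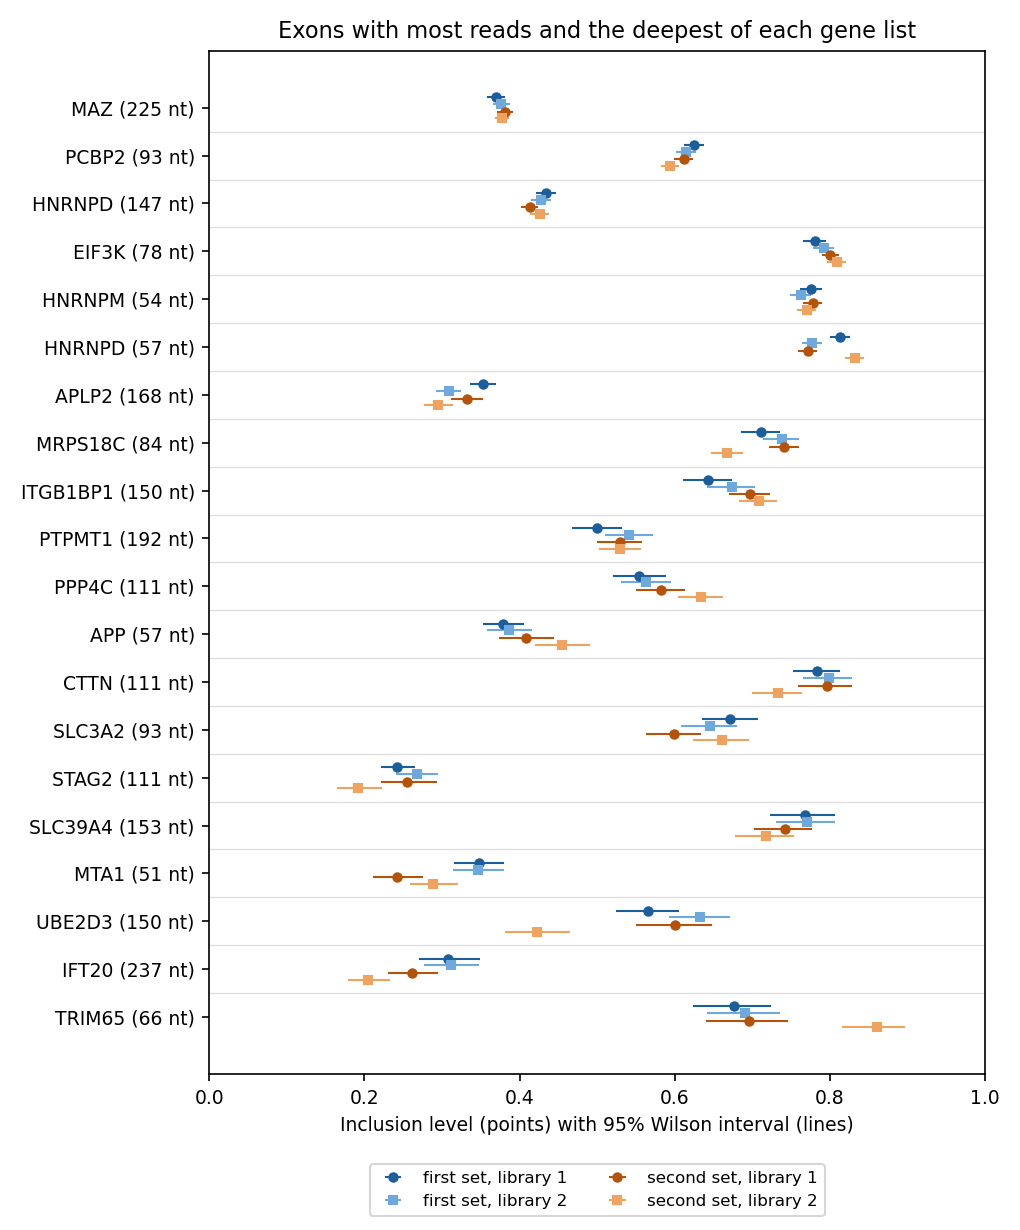
Inclusion level (x axis, 0 to 1) in each library of the 6 exons with most reads and of the 2 deepest exons of each gene list, ordered by depth from the top; blue is the first set, orange the second, and lines are 95% Wilson intervals. The intervals widen from MAZ to TRIM65, and in UBE2D3 and TRIM65 library 2 of the second set stands apart at 0.422 and 0.861.

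Grouped by gene lists drawn up from name patterns, the exons gave few calls in any list. Name-based lists took in 144 of the 370 exons, and each exon counts in 1 list. A few genes fall into a list by name and not by function, and genes of a like role can be in no list. The counts below stand beside 4.59% called and 34.9% with separate sets among the 370 exons, 2.71% and 22.8% among all tested events, and 7.85% and 33.9% among events with a mean inclusion level of 0.2 to 0.8. The list of RNA-binding and splicing proteins had 20 exons, of which 1 (ZC3H14) was called. In 4 of them (20%, near the share of all tested events) the sets did not overlap. Their median absolute difference was 0.0172, against 0.0323 over all 370 exons and 0.0114 over all tested events. Besides the exons already given, PUF60, a splicing factor that binds pyrimidine tracts, had a 51-nt exon at 0.635 and 0.601 against 0.620 and 0.615. PTBP1, the pyrimidine tract binding repressor, had a 57-nt exon at 0.614 and 0.578 against 0.587 and 0.585. Both lay near 0.6 in all 4 libraries.

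Translation, ribosome and chaperone genes had 11 exons, 0 called, with a median absolute difference of 0.0191 and 5 exons (45.5%; 22.8% of all tested events) whose sets did not overlap. MRPS18C, a protein of the small mitochondrial ribosomal subunit, had an 84-nt exon at 0.712 and 0.738 against 0.741 and 0.668. Library 2 of the second set was the low one. Chromatin and transcription genes had 23 exons with 3 calls (2.71% of all tested events and 7.85% of those at inclusion of 0.2 to 0.8 were called), HCFC1R1 and FOXRED2 higher and KDM1A lower, of which FOXRED2 is there by its name alone. Their median inclusion level of 0.421 was the lowest of the 9 lists, and their median absolute difference was 0.0306.

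The membrane traffic and receptor list had 26 exons, 0 called, and a median absolute difference of 0.0505. In 12 of them (46.2%, against 22.8% of all tested events and 33.9% at inclusion of 0.2 to 0.8) the sets did not overlap. APLP2, a relative of the amyloid precursor protein, had a 168-nt exon at 0.353 and 0.308 against 0.332 and 0.295. APP itself had a 57-nt exon at 0.379 and 0.387 against 0.409 and 0.455. The first exon overlapped between the sets and the second did not. The list of kinases, phosphatases and small GTPases had 22 exons, 0 called, and a median absolute difference of 0.0481. In 8 of them (36.4%, near the 34.9% of the 370) the sets were separate. PTPMT1, a mitochondrial phosphatase, had a 192-nt exon at 0.5004 and 0.542 against 0.529 and 0.530. The 111-nt exon of PPP4C, a protein phosphatase catalytic subunit, had 0.555 and 0.563 against 0.582 and 0.633, with the highest value again in library 2 of the second set.

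The cytoskeleton, adhesion and motor list had 13 exons, 0 called, with a median absolute difference of 0.0324. In 6 of them (46.2%, against 22.8% of all tested events) the sets were separate. ITGB1BP1, which binds the tail of integrin beta subunits, had a 150-nt exon at 0.643 and 0.674 against 0.698 and 0.708. CTTN, the actin-binding protein cortactin, had a 111-nt exon at 0.784 and 0.799 against 0.796 and 0.734. Neither was called. The metabolism, mitochondria and transport list had 16 exons, 0 called, with a median of 0.0365. In 6 of them (37.5%, near the 34.9% of the 370) the sets were separate. SLC3A2, the heavy chain of an amino acid transporter, had its deepest exon, of 93 nt, at 0.672 and 0.645 against 0.599 and 0.661. SLC39A4, a zinc importer, had a 153-nt exon at 0.768 and 0.771 against 0.742 and 0.718.

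The cell cycle, centrosome and genome maintenance list had 8 exons, 0 called, with a median absolute difference of 0.0280. Its deepest exon, of 111 nt in the cohesin subunit STAG2, had 0.242 and 0.267 against 0.255 and 0.192. The ubiquitin and cell death list had 5 exons, 0 called, and the highest median of the lists, 0.0651. UBE2D3, a ubiquitin-conjugating enzyme, had a non-coding 150-nt exon at 0.565 and 0.633 against 0.6 and 0.422. TRIM65, a ubiquitin ligase, had a 66-nt exon at 0.676 and 0.691 against 0.696 and 0.861. In both exons 3 libraries lay close together and library 2 of the second set apart, once low and once high. The other 226 exons were in no list and held 13 of the 17 calls. Some of these calls were in genes with a role like that of a list, such as the kinase BRSK2 and the mismatch repair exonuclease EXO1. A count of 0 in a list thus does not cover every gene of its role.

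Several genes held more than 1 of these exons: 278 genes had 1, 34 had 2 and 8 had 3. In 14 pairs the exons overlapped and shared a splice site, so their reads are not independent. Of these pairs, 4 differed by 3 nt, that is by 1 codon: those of PUF60, SLC3A2, REPS1 and MBD1. In SLC3A2 the forms of 96 nt and 93 nt end at the same base and are given here after their values were seen. The 96-nt form had levels of 0.308 and 0.249 against 0.311 and 0.306, and the 93-nt form 0.227 and 0.192 against 0.231 and 0.286. The 96-nt form was above the 93-nt form in each library. Neither was called.

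In the tyrosine kinase FYN, the pair of exons that do not occur together in the textbook isoforms were both present, also named here after their values were seen. The 156-nt exon had levels of 0.354 and 0.305 against 0.379 and 0.245, and the 165-nt exon 0.419 and 0.408 against 0.381 and 0.431. The authors' deposited table has both at FDR 1. MFF, the receptor for the fission GTPase on mitochondria, had 3 exons at separate levels. Its 159-nt exon lay between 0.683 and 0.794, its 60-nt exon between 0.326 and 0.399 and its 75-nt exon between 0.167 and 0.294. None of the 3 had sets that did not overlap.

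The level of an exon depended on the event from which it was read. Several tested events contained 194 of the 370 exons, up to 10 for one exon. For 155 of these the mean inclusion levels of the events spanned at least 0.2, and 139 had another event above 0.9, in which the same exon appeared nearly constitutive between other neighbours. The levels above are those of the deepest event that met the rule.

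Over the 4 libraries, the median range of an exon's inclusion level was 0.0904. The range was under 0.05 in 66 exons and under 0.1 in 194. It was at least 0.2 in 25 exons, and in all 25 of these library 2 of the second set was the highest or the lowest. The widest was a non-coding 204-nt exon of ZC3H11A, a zinc finger protein of mRNA export, at 0.682, 0.738, 0.741 and 0.282. There 3 libraries agreed to within 0.1 and the departure was in library 2 of the second set. Library 1 of the second set, among the 3 that agreed, had under 100 reads at this exon. The ZC3H11A exon had the largest difference between the sets of the 370, 0.198. Without library 2 of the second set the difference was -0.0308, and the second set then rested on the shallow library alone. limma with precision weights gave the exon an adjusted p of 0.0191.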

How the data were processed

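Poly(A) RNA-seq of 4 libraries of 293T cells was deposited as 1 comparison table of skipped exons, which per the file headers has the layout of rMATS junction counts. The submitters' processing notes name cutadapt, STAR and hg19, with no versions; the rMATS version and annotation are not given in the sources used here. For each event the deposited table holds the inclusion and skipping read counts and inclusion levels of the 2 libraries of each set, joined by commas in 1 cell. The difference in inclusion level is a score from the authors, first set minus second set, and the p-value and FDR per event are also the authors' deposited values. Recomputing the levels from the reads and form lengths gave the deposited levels to within 0.0005.

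Events with a mean of at least 20 reads were tested. A quasi-binomial model of inclusion and skipping reads, offset for the form lengths, was fitted to each event in R 4.3.3, with the dispersion moderated over events by squeezeVar of limma 3.58.1 with a trend on depth and never set under 1, and Benjamini-Hochberg adjustment over all tested events. limma was also run on the log2 ratio with a pseudocount of 0.5, with and without precision weights. The fit was tested on simulated data. Wilson intervals at 95% were computed on the share of inclusion reads and carried through the length correction. Exons were matched to GENCODE release 29 within the gene identifier by the spacing of the 3 exons; no position was converted between builds, and base differences between builds would not show in the printed sequences. Exons named are up to 8 called in each direction by lowest FDR, any past the quasi-binomial test, the 6 with most reads, the 2 deepest of each gene list and the 3 nearest each edge of the rule; others, among them the remaining calls, were named after their values were seen. The exons and the gene lists were chosen with earlier results of these data known. Some sequences and 1 exon are not reported here.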

Additional observations from a re-analysis of the deposited data

How the results depend on the processing

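The number of calls moved most with the criteria of the exons and of the call. It was 17, and 5 at an FDR under 0.01, 0 at a difference of at least 0.2, 38 with a minimum of 100 reads and 6 with a minimum of 400 reads. It was between 13 and 22 with a difference of at least 0.05, a mean inclusion level of 0.3 to 0.7, all events of the exons, no length correction, or, chosen after seeing the data, the deepest event kept before the rule was applied. With 1 library left out at a time, from 9 to 15 of the 17 kept a difference of at least 0.1. The FDR in these counts is the authors' deposited value and was not recomputed. The count past the quasi-binomial test was 0 under each alternative that was run, also with 1 library left out (0 in each case), except limma with precision weights, with 2. Requiring a gap of at least 0.05 brought the exons with separate sets from 129 to 29. The rule itself gave 644 exons at 100 reads, 158 at 400 reads, 755 for inclusion from 0.1 to 0.9 and 188 from 0.3 to 0.7. Among 78 named exons, the mean over all events moved the difference by more than the spread in 8 and leaving out the length correction in 3, among the latter RPUSD1 (0.0592 for the long form and 0.0906 for the short one) and FOXRED2 (0.0816). The edgeR alternative was not run. No paired analysis was possible because the libraries of a set carry no replicate number in the table. At 200 reads an interval is wider than the median difference between the sets, so smaller differences are not resolved one exon at a time.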

Other observations

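Some of the exons are known for isoforms in other tissues and are named here after their values were seen. Their intermediate mean levels follow from the rule that chose them. The 63-nt exon of FMR1, the RNA-binding protein of fragile X syndrome, had levels of 0.192, 0.235, 0.273 and 0.196 in the order first set, then second set. The 78-nt exon of DNM1L, the GTPase of mitochondrial fission, had 0.240, 0.162, 0.307 and 0.261. VEGFA, the vascular growth factor, had a 132-nt exon at 0.528, 0.510, 0.476 and 0.381. None of these 3 was called, and the sets overlapped in FMR1 only.

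In another 11 exons the mean levels of the sets differed by at least 0.1 without a call. SHMT1, an enzyme of one-carbon metabolism, had a 117-nt coding exon with 0.430 and 0.419 against 0.527 and 0.534, and the authors' deposited table has it at FDR 0.0595. CAST, the calpain inhibitor, had a 57-nt coding exon at 0.795, 0.823, 0.808 and 0.550. In SHMT1 both libraries of each set lay close together, and in CAST library 2 of the second set lay apart from the rest. The mean difference over all events with the SHMT1 exon was -0.0461, against -0.106 in the event used. For the CAST exon these values were 0.0441 and 0.130.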
